A study of Mus musculus with 2 samples.

Results

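CC chemokines and the receptor Ccr2 were followed across the cell types of an uninjured and an ischemic mouse kidney. The 10 genes were chosen by name, as the CC ligands Ccl2, Ccl3, Ccl4, Ccl5, Ccl6, Ccl7, Ccl8, Ccl9 and Ccl12 and the receptor Ccr2, of 32285 genes listed in the counts. All 10 had UMIs in both libraries, where a unique molecular identifier (UMI) marks 1 captured RNA molecule. They held 11555 UMIs in the control and 40743 UMIs in the ischemia library. The scRNAseq data came from 1 control library, a contralateral kidney without injury, and 1 ischemia library, a kidney taken after 27 min of ischemia and 24 h of reperfusion. Both kidneys were from male wildtype C57BL/6J mice of 19 weeks that carried no transgene or deletion. Each library was made from a single kidney, so kidneys were not pooled, and whether the same mouse gave both is not given in the sources used here. The comparison of the libraries asks in which kidney cells these genes are expressed and how their levels differ after ischemia.

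CC chemokines are small secreted proteins that bind G protein-coupled receptors on leukocytes and direct their migration. Ccl2, Ccl7 and Ccl12 are ligands of Ccr2, the receptor through which inflammatory monocytes leave the bone marrow and enter injured tissue. Ccl3, Ccl5, Ccl6 and Ccl9 are ligands of Ccr1 in the mouse. In the injured kidney, Ccl2 is best known as a signal that recruits monocytes, and Ccl5 as a product of T cells and NK cells that injured epithelium can also make.

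In the mouse genome (build GRCm38, GENCODE annotation) the 9 ligand genes lie in 2 blocks on chromosome 11. The first block, chr11:82035571-82116799, spans 81.2 kb and holds Ccl2, Ccl7, Ccl12 and Ccl8, all on the plus strand. The second block, chr11:83525778-83664683, spans 139 kb and holds Ccl5, Ccl9, Ccl6 and Ccl3 on the minus strand and Ccl4 on the plus strand. The blocks are 1409 kb apart. Ccr2 lies on chromosome 9 (chr9:124101950-124113557, plus strand). The blocks are given because neighbours are described together in the results, and their sequences are shown for 2 pairs of neighbours, Ccl12 with Ccl8 and Ccl6 with Ccl9, whose levels were high in the same macrophage sub-clusters. RefSeq windows (GRCm38.p6) matched 6 of the 10 genes, Ccl3, Ccl6, Ccl8, Ccl9, Ccl12 and Ccr2. The 250 bases before the annotated start of the 4 genes of these pairs are printed 5′ to 3′ on the strand of the gene, with capitals for the motifs searched on both strands, which were NF-kB (GGG, any 2 bases and TTTCC), AP-1 (TGANTCA), ETS (AGAGGAAGT), GAS (TTCNNNGAA) and the TATA box (TATAAA).
Ccl12 (chr11:82101595-82101844, strand plus): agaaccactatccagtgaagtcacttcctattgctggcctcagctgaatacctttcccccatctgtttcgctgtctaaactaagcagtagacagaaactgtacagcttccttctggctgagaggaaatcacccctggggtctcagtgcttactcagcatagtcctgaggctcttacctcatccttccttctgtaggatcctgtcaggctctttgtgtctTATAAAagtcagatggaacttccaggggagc
Ccl8 (chr11:82114935-82115184, strand plus): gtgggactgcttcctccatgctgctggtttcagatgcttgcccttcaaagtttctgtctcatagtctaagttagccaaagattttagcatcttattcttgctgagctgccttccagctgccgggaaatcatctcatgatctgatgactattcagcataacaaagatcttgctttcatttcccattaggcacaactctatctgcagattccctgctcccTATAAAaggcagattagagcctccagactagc
Ccl6 (chr11:83593088-83593337, strand minus): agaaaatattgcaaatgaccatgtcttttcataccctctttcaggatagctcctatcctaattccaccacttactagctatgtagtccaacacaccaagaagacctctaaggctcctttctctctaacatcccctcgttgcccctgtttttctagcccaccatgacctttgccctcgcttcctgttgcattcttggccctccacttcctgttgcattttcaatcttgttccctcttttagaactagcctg
Ccl9 (chr11:83578637-83578886, strand minus): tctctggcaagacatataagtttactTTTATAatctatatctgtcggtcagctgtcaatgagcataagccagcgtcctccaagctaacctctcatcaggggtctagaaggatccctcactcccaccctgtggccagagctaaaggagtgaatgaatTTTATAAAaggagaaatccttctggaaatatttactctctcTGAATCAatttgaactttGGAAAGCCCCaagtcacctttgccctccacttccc
The windows of Ccl12 and Ccl8 each held 1 TATA box, beginning 31 and 32 bases before the start, and no other motif of the list. The window of Ccl9 held 1 NF-kB match from 35 bases and 1 AP-1 match from 53 bases before the start, and 3 TATA matches, of which 1 on each strand overlap in a single run of capitals. The window of Ccl6 held none of these letters. Of all 32851 RefSeq windows of this length, 1.41% held the NF-kB letters, 6.75% the AP-1 letters, 0.798% the ETS letters, 7.02% the GAS letters and 12.4% the TATA letters.

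The filters kept 12586 control and 13116 ischemia cells with 124679362 and 128733541 UMIs, at medians of 3839 and 2138.5 UMIs per cell. Clusters were named from marker genes, and "-like" marks that the name rests on these markers alone. The macrophage-like cluster, where most of the 10 genes were found, had 289 control and 575 ischemia cells at medians of 5551 and 8638 UMIs. All 9 of its markers were detected there, with 11456 CPM of the marker list in the control and 12656 CPM in ischemia, where CPM are UMIs of a gene per 1000000 UMIs of the same cells. Proximal tubule (PT) markers came to 3910 and 1975 CPM in the same cells and were found in 100% and 99.8% of them, and the part of free RNA in the values was not tested. The 2 libraries shared 88 barcodes, 58 of them among kept cells, of which 4 control and 3 ischemia cells were macrophage-like.

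No test between conditions was possible with a single library for each, and cells were not counted as replicates. CPM are given with exact 95% Poisson intervals, ratios of ischemia to control CPM with exact conditional binomial intervals, and shares of cells with exact Clopper-Pearson intervals. All of these cover counting error only, not the spread between mice. A gene is written as higher or lower when it had at least 20 UMIs over both libraries in the cells compared, its CPM differed at least 2-fold and the interval of the ratio left out 1. Levels are compared between cells and libraries, not between genes, since 3′ counts also depend on how well each transcript is captured.

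Over all kept cells, 8 of the 10 genes were higher in ischemia and 0 were lower, against 9.63% of all genes tested higher and 4.52% lower by the same rule. The genes were chosen with earlier results of these data known, so such shares are a description only, here and below. Summed over the 9 ligands, the level was 88.8 CPM (interval 87.1–90.5) in the control kidney and 298 CPM (295–301) in ischemia. These totals mix the level per cell with the number of cells of each type, and alone do not tell them apart. The macrophage-like and neutrophil (PMN)-like clusters held 289 and 33 control cells against 575 and 208 ischemia cells. In macrophage-like cells, ligand UMIs went from 9092 in control to 30566 in ischemia, and all UMIs from 1792972 to 5363231. The ratio of summed ligand CPM in these cells was 1.12. Immune-like clusters (macrophage, PMN, T/NK and B) held 95.7% of the ligand UMIs in the control and 87.6% in ischemia. Over all immune-like cells 4 of the 10 genes were higher, Ccl2, Ccl6, Ccl7 and Ccl9, and 0 were lower, against 4.91% of all genes higher and 7.1% lower. For 8 of the 10 genes the macrophage-like cells held over 80% of the UMIs in each library, and the exceptions were Ccl5 and Ccl6.

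**Figure D1:**
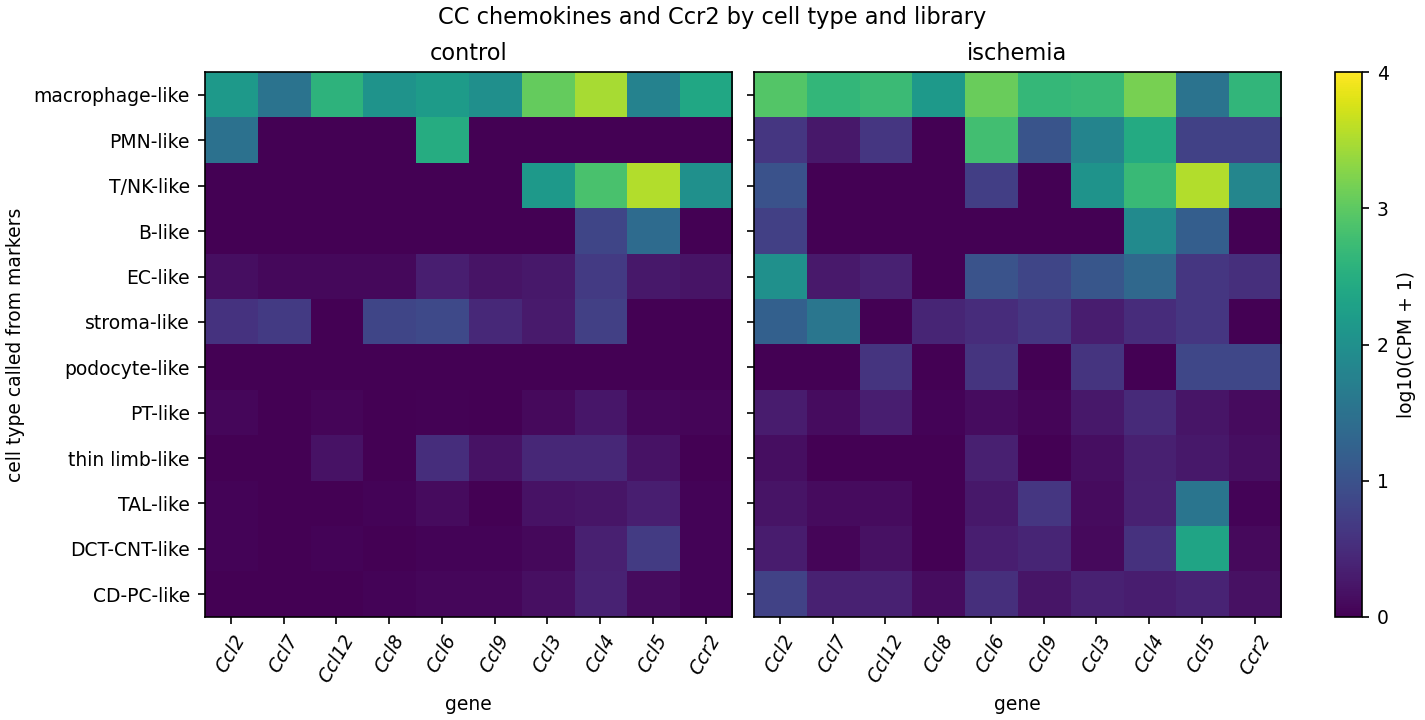
Level of each gene as log10(CPM + 1), by cell type called from markers (rows) and gene (columns), in the control library (left) and the ischemia library (right). Macrophage-like cells had all 10 genes, T/NK-like cells had Ccl5 at 3456 and 3416 CPM, and endothelial (EC)-like cells with Ccl2 and DCT-CNT-like cells with Ccl5 stood out among the other cells in ischemia.

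**Figure D2:**
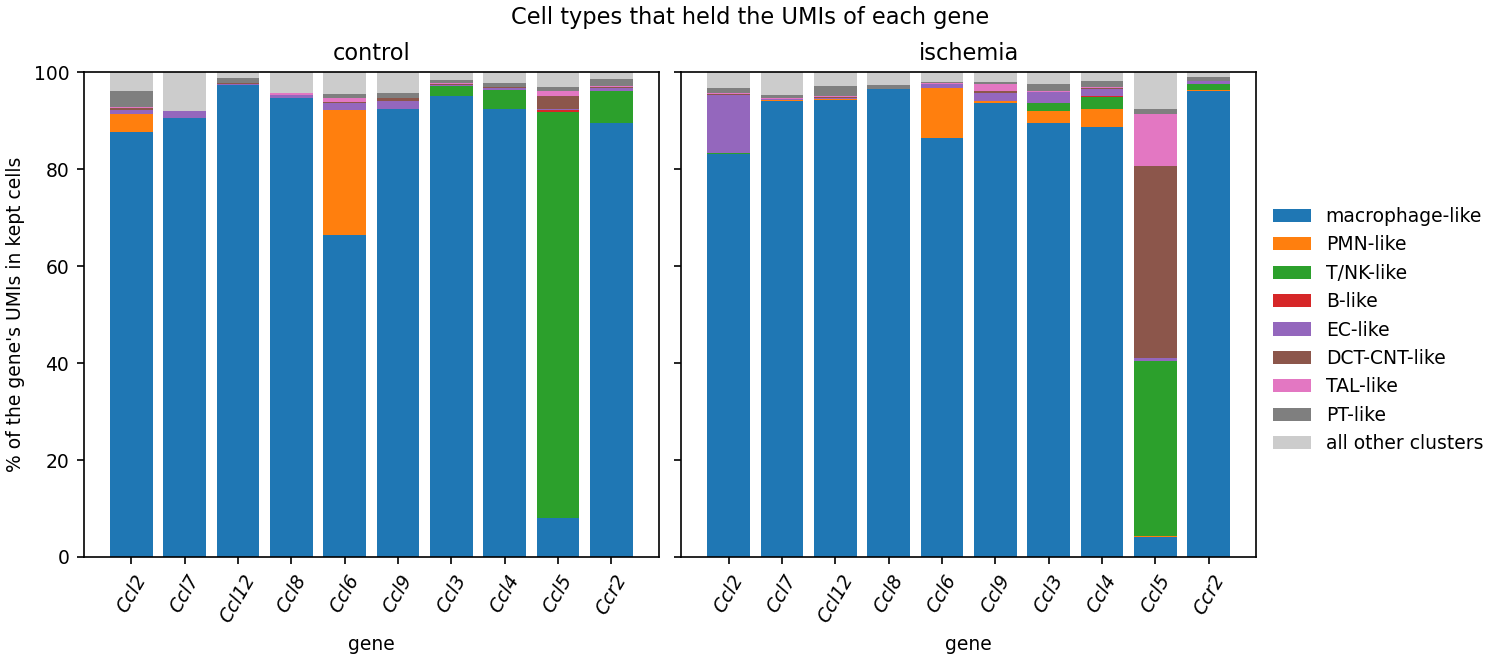
Percent of each gene's UMIs in kept cells that each cell type held, in control (left) and ischemia (right); each bar adds up to all UMIs of that gene in the library. Macrophage-like cells held most UMIs of every gene but Ccl5, whose UMIs lay in T/NK-like cells in control (83.9%) and in DCT-CNT-like (39.6%) and T/NK-like (36.1%) cells in ischemia.

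In macrophage-like cells, 4 of the 10 genes were higher in ischemia, Ccl2, Ccl7, Ccl6 and Ccl9, and 1, Ccl3, was lower. Over all 11284 genes tested in these cells, 5.33% were higher and 6.93% lower, and the median log2 ratio was 0.06. The sum of the 9 ligands was 5071 CPM in control cells and 5699 CPM in ischemia, with a ratio of 1.12. The summed level thus differed by less than the 2-fold limit, while single ligands lay on both sides of it.

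The Ccr2 ligands were described first. Ccl2, the main monocyte attractant, was at 138 CPM in control (interval 121–156) and 853 CPM in ischemia (828–878), 6.19-fold higher (5.45–7.07). Ccl2 UMIs were found in 34 of 289 control cells (11.8%) and in 268 of 575 ischemia cells (46.6%), and after thinning each cell to 1000 UMIs in 6.38% and 24.8%. Ccl7, its neighbour and also a Ccr2 ligand, was at 31.8 CPM (24.1–41.2) in control cells and 443 CPM (425–461) in ischemia, 13.9-fold higher (10.7–18.4). The control value of Ccl7 came from 7 cells with 57 UMIs, 55 of them in 5 cells, whereas 130 ischemia cells had it. Thick ascending limb (TAL)-like cells, which served as background, had a Ccl2 UMI in 0.2% of control and 1.64% of ischemia cells at medians of 19886.5 and 24629 UMIs, or 0.205% in ischemia after thinning. For the other genes but Ccl5, at most 1.4% of control and 3.07% of ischemia TAL-like cells had a UMI, and at most 0.411% after thinning.

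The other members of the first block did not pass the rule. Ccl12, a further Ccr2 ligand of the mouse, was at 386 CPM (358–416) in control cells and 529 CPM (510–549) in ischemia, with a ratio of 1.37. Ccl8, a chemokine of tissue macrophages, was at 112 CPM (96.6–128) in control cells and 145 CPM (135–156) in ischemia, with a ratio of 1.30. Its UMIs lay in few cells. Ccl8 was detected in 7 control and 18 ischemia cells, and 1 control cell held 183 of the 200 control UMIs. With the highest cell of each library left out, Ccl8 was at 9.52 CPM in control cells and 98.0 CPM in ischemia, 10.3-fold higher (6.37–17.8), so the value over all cells rested on single cells.

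Ccl6 and Ccl9, neighbouring Ccr1 ligands of rodent myeloid cells, were both higher in ischemia. Ccl6 was at 158 CPM (140–177) in control cells and 1205 CPM (1176–1235) in ischemia, 7.64-fold higher (6.78–8.63). It was detected in 47.1% of control and 68.7% of ischemia cells, and in 13.8% and 39.0% after thinning. Ccl9 was at 96.5 CPM (82.6–112) in control cells and 455 CPM (437–474) in ischemia, 4.72-fold higher (4.04–5.54). Its UMIs were spread over 77 control and 340 ischemia cells with at most 10 and 61 UMIs in a cell.

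Of Ccl3 and Ccl4, the macrophage inflammatory proteins, Ccl3 was lower in ischemia and Ccl4 missed the rule. Ccl3 was at 1149 CPM (1100–1200) in control cells and 520.4 CPM (501–540) in ischemia, with a ratio of 0.453 (0.428–0.480), and so was lower. Ccl4 was at 2942 CPM (2863–3023) in control cells and 1516 CPM (1483–1550) in ischemia, with a ratio of 0.515, just short of the 2-fold limit, which it passed in some of the alternatives, with ratios from 0.449 to 0.845. Ccl5, an attractant of T cells and monocytes, was at 58.6 CPM (47.9–70.9) and 32.3 CPM (27.6–37.4), but 103 of its 105 control UMIs lay in 5 cells. Without the highest cell of each library its ratio went from 0.551 to 0.797, with an interval of 0.576–1.12.

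Ccr2, the receptor, was at 241 CPM (219–265) in control cells and 431 CPM (413–448) in ischemia, with a ratio of 1.78 that was under 2 here, 2.11 when each cell was thinned to 1000 UMIs and 0.820 with the control library's mix of the sub-clusters described next, where the direction turned. It was detected in 109 of 289 control cells (37.7%) and 348 of 575 ischemia cells (60.5%), and after thinning in 16.0% and 26.8%.

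**Figure D3:**
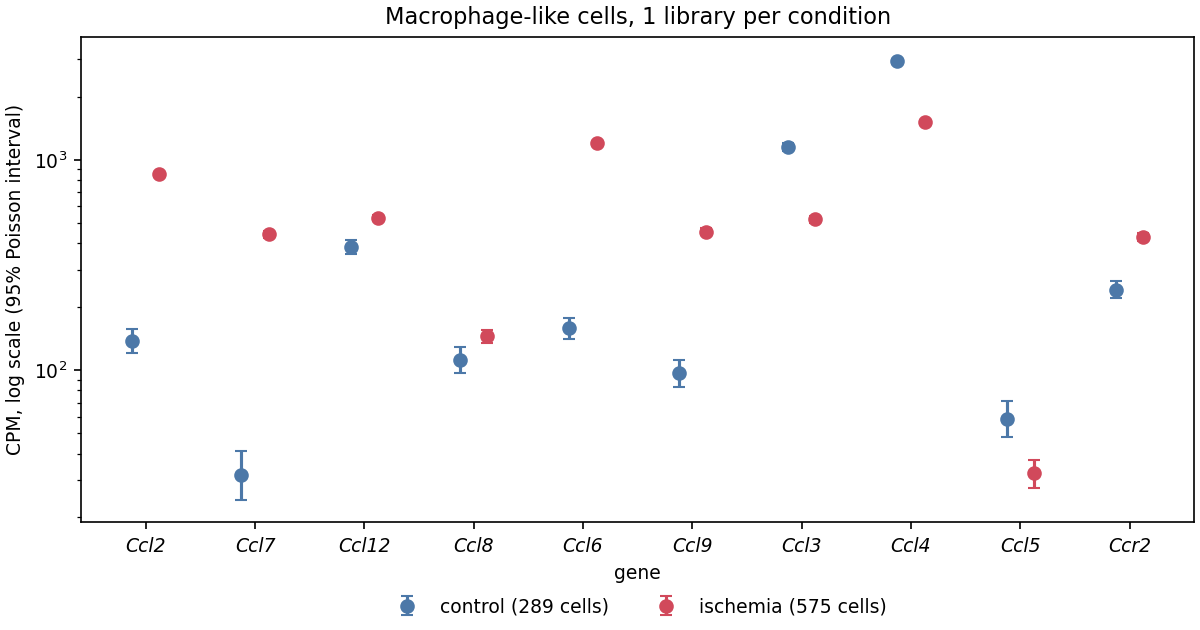
CPM of each gene in macrophage-like cells (log axis) with 95% Poisson intervals, 1 point per library, with 289 control cells (blue) and 575 ischemia cells (red). Ccl2, Ccl7, Ccl6 and Ccl9 lie higher in ischemia, Ccl3 lies lower, and the intervals cover counting error only.

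To see which macrophage-like cells carried these differences, the immune-like cells were clustered again without these 10 genes among the variable genes. One sub-cluster, led by Cd209f, Cxcl13 and Ighg3, held 191 control and 173 ischemia cells. All 8 markers of C1q-high macrophages were detected in it, but none of them was among its 10 leading genes, so it is called the Cd209f-led sub-cluster. A second, led by Chil3, Vcan and Arg1 and named C1q-low monocyte/infiltrating macrophage-like, held 20 control and 270 ischemia cells. The summed C1q genes stood at 12229 and 12503 CPM in the former and at 1500.3 and 1753 CPM in the latter. Another sub-cluster, of 44 control and 104 ischemia cells, was led by endothelial genes such as Adgrl4 and Plvap and stayed unnamed.

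In the Cd209f-led sub-cluster, 6 of the 10 genes were higher in ischemia, against 6.81% of all genes, and 1 was lower, against 5.35%. All 4 genes of the first block were among the 6. Ccl7 was at 49.7 CPM (37.4–64.7) in control cells and 706 CPM (667–747) in ischemia, 14.2-fold higher. Ccl2 was at 178 CPM (154–205) and 668 CPM (630–708), 3.76-fold higher, and was detected in 13.6% of control and 61.3% of ischemia cells. Ccl12 was at 617 CPM (572–665) and 1323 CPM (1269–1378), 2.14-fold higher, and was detected in 35.1% and 67.1% of cells. Ccl8 was at 181 CPM and 392 CPM, and again 198 of its 200 control UMIs lay in 5 cells. Without the highest cell of each library the ratio of Ccl8 was 16.0 (9.88–27.8) and that of Ccl7 24.4 (16.9–36.7). Ccl9 was 2.14-fold higher. Ccl6 was 2.39-fold higher, but without the highest cell of each library its ratio was 1.87 and that call was lost. Ccl5 was lower at a ratio of 0.382, a call that was also lost without the highest cell (0.603, interval 0.357–1.02).

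The ratios of Ccl3 and Ccl4 were nearer to 1 in this sub-cluster than in the whole macrophage-like cluster, and neither passed the rule. Ccl3 was at 1665 CPM (1590–1743) in control cells and 1254 CPM (1202–1308) in ischemia, with a ratio of 0.753. Ccl4 was at 4394 CPM (4271–4519) and 3422 CPM (3336–3511), with a ratio of 0.779. It was detected in 80.1% of control and 83.2% of ischemia cells. Ccr2 was at 154 CPM (132–179) and 124 CPM (108–142), with a ratio of 0.803.

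In the C1q-low monocyte-like sub-cluster, 5 of 9 genes with enough UMIs were higher, against 3.41% of all genes, and 1 was lower, against 4.34%. The 20 control cells limit every ratio here. Ccl2 had 1 UMI in the control cells and 2978 UMIs, or 1167 CPM (1126–1210), in the ischemia cells, and the ratio was 148 (26.5–5841). Ccl7 had 0 UMIs in control, which allows up to 23.7 CPM at 3 counts, and was at 343 CPM (320–366) in ischemia, at least 14.5-fold higher. Ccl6 was at 505 CPM (389–645) and 2164 CPM (2107–2222), 4.28-fold higher, and was detected in 93.7% of ischemia cells. Ccl9 was at 308 CPM (219–421) and 768 CPM (734–802), 2.49-fold higher. Ccl12 had 1 control UMI and was at 86.2 CPM (75.2–98.4) in ischemia. Ccl3 was at 371 CPM (273–494) and 129 CPM (115–144) and so was lower, with all 47 control UMIs in 3 cells. Ccr2 was at 655 CPM (522–812) and 729.9 CPM (697–764), with a ratio of 1.11.

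Set side by side in ischemia, the 2 sub-clusters had members of the family at different levels. The Cd209f-led cells had the higher levels of Ccl12 (1323 against 86.2 CPM), Ccl8 (392 against 29.4 CPM), Ccl3 (1254 against 129 CPM), Ccl4 (3422 against 416 CPM) and Ccl7 (706 against 343 CPM). The C1q-low monocyte-like cells had the higher levels of Ccl6 (2164 against 373 CPM), Ccl9 (768 against 197 CPM), Ccr2 (729.9 against 124 CPM) and Ccl2 (1167 against 668 CPM). The Poisson intervals of these genes did not overlap. The share of all genes that differ in this way between the 2 sub-clusters was not measured. Whether this is particular to the family was therefore not tested. All 75 Ccl8 UMIs of the monocyte-like cells lay in 1 of 270 cells.

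**Figure D4:**
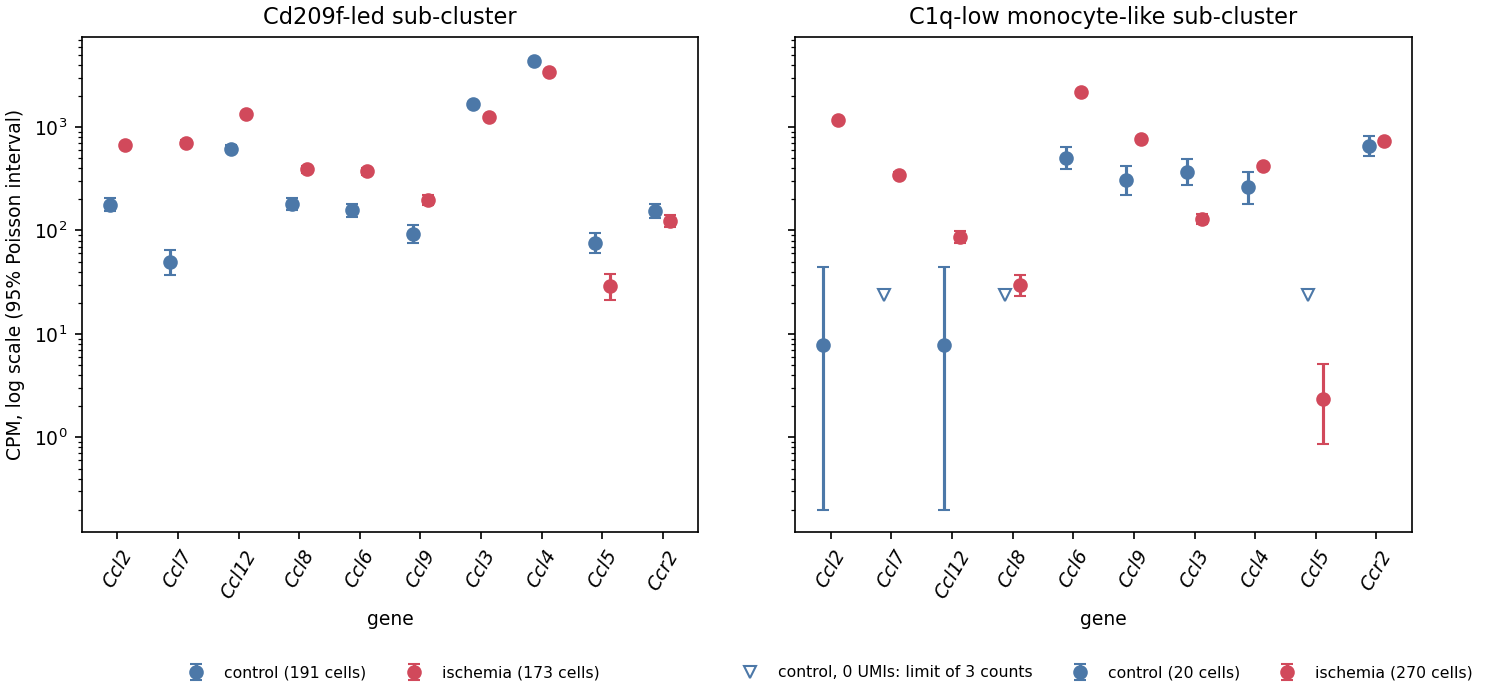
CPM of each gene (log axis) with 95% Poisson intervals in the Cd209f-led sub-cluster (left, 191 control and 173 ischemia cells) and in the C1q-low monocyte-like sub-cluster (right, 20 control and 270 ischemia cells), with control in blue and ischemia in red. Open triangles mark genes with 0 control UMIs at the limit that 3 counts allow; Ccl12 and Ccl8 lie higher on the left, and Ccl6, Ccl9 and Ccr2 higher on the right.

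The sub-clusters had different shares of the cells in the 2 libraries. When the ischemia sub-clusters were weighted by the control library's mix, a step chosen after seeing the data, the ratios over all macrophage-like cells moved. Ccl3 went from 0.453 to 0.758 and Ccl4 from 0.515 to 0.845. Ccr2 went from 1.78 to 0.820. Ccl6 went from 7.64 to 2.89 and Ccl9 from 4.72 to 2.21, whereas Ccl12 went up from 1.37 to 2.38 and Ccl8 from 1.30 to 2.29. Ccl2 was at 4.34 and Ccl7 at 16.7 by this weighting. The summed C1q genes went from a ratio of 0.651 to 1.05.

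Macrophage-like cells with and without a Ccr2 UMI had several ligands at different levels. In ischemia, the 348 cells with a Ccr2 UMI had 2.37 CPM of Ccl8 and 194 CPM of Ccl12, and the 227 cells without had 489 CPM and 1335 CPM. Ccl6 was at 1494 CPM in the cells with Ccr2 and 509 CPM in those without, and Ccl2 at 929.9 and 668 CPM. In the same order, Ccl9 was at 555 and 215 CPM and Ccl3 at 281 and 1097 CPM. Ccl4 was at 944 and 2894 CPM, Ccl7 at 315 and 750 CPM and Ccl5 at 12.7 and 79.4 CPM. In control, Ccl8 was at 3.53 CPM in 109 cells with Ccr2 and 209 CPM in 180 cells without, and Ccl12 at 24.7 and 712 CPM. The Ccl8 values rest on few cells. Macrophage-like cells had 200 control and 778 ischemia UMIs of Ccl8, and 17 and 524 were left without the highest cell of each library. Ccl2 had the other order in control, at 88.2 CPM (69.4–111) with Ccr2 and 182 CPM (156–212) without. The control intervals of Ccl6 overlapped, at 179 CPM (151–210) and 139 CPM (116–165). Cells with a Ccr2 UMI were deeper, with medians of 6854 against 4508.5 UMIs in the control and 9792 against 6250 UMIs in ischemia, and the part of depth in these values was not tested. With and without Ccr2, the summed C1q genes were at 5462 and 10257 CPM in control and 3318 and 9711 CPM in ischemia. The split thus also divides cells by C1q level, as the sub-clusters do. The share of all genes that differ between these cells was not measured.

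Single macrophage-like cells often held several ligands. The median number of the 9 ligands with a UMI was 2 per control and 3 per ischemia cell, and 6.57% of control and 24.3% of ischemia cells had 5 or more. After thinning to 1000 UMIs the medians were 1 and 1, and 0.355% and 6.03% of cells had 5 or more. The 10% of macrophage-like cells with most ligand UMIs held 43.7% of the ligand UMIs in the control and 47.5% in ischemia.

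T/NK-like cells were the main site of Ccl5 in control. Ccl5 was at 3456 CPM (3255–3666) in 99 control cells and 3416 CPM (3245–3594) in 115 ischemia cells, and was detected in 49.5% and 56.5% of them. None of the 4 genes with enough UMIs in these cells passed the rule, against 3.58% of all genes higher and 3.43% lower. Ccl4 was at 709.9 CPM (621–808) and 516 CPM (450–587) and Ccr2 at 100.1 CPM (68.5–141) and 66.4 CPM (44.5–95.4), with overlapping intervals for Ccr2. NK-like cells, a sub-cluster of 14 control and 9 ischemia cells led by Gzma and Prf1, had Ccl5 at 11382 CPM and 10867 CPM. T-like cells had it at 2109.8 CPM and 2748 CPM. Ccl5 was itself among the 10 leading genes of the NK-like sub-cluster.

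In the PMN-like sub-cluster, of 17 control and 171 ischemia cells, 2 of 3 genes with enough UMIs were higher, against 6.41% of all genes higher and 2.33% lower. Ccl6, the gene that missed the rule there, was at 1259 CPM and 1018 CPM, with a ratio of 0.809 (0.658–1.002). Ccl4 had 0 control UMIs and was at 423 CPM in ischemia, at least 11.8-fold higher, and Ccl3 had 0 control UMIs and was at 106 CPM, at least 2.94-fold higher. In the wider PMN-like cluster, 3 of 3 genes tested were higher, Ccl3, Ccl4 and Ccl6, against 10.7% of all genes higher and 10.8% lower. That cluster also held 14 control and 19 ischemia cells led by Cdh6 and Ren1, which are not neutrophil genes, and their part in the Ccl6 value was not tested. The PMN-like sub-cluster held 83379 of the 367226 control UMIs and 718728 of the 1225327 ischemia UMIs of the wider cluster. Ccl6 was thus called higher in the wider cluster but not in the PMN-like sub-cluster. B-like cells had at most 81.8 CPM of any of the 10 genes.

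A further sub-cluster, of 29 control and 46 ischemia cells, was led by Ccl22, Cox6a2, Siglech, Apol7c, Mreg, Cd209a and Fscn1. Of its 10 leading genes, 2 were on the migratory dendritic cell list that gave its name, and Cd209a was on the list of conventional dendritic cells. Siglech and Cox6a2 were on neither list, so the name rests on a part of the leading genes. Its mix of dendritic cells was not tested. Of the 10 genes followed here, 9 had enough UMIs in these migratory dendritic cell-like cells. Of these 9, 3 were higher in ischemia, against 5.98% of all genes, and 2 were lower, against 4.41%. Ccl3 was at 637 CPM (532–758) in control cells and 216 CPM (172–266) in ischemia, with a ratio of 0.338 (0.254–0.448). Ccl2 was at 159 CPM (109–225) and 62.6 CPM (40.5–92.5), with a ratio of 0.393 (0.223–0.685) and 19 of its 25 ischemia UMIs in 1 cell. Both stayed lower without the highest cell of each library, at ratios of 0.179 and 0.178. The 3 higher genes rested on few cells. Ccl12 had 0 control UMIs and was at 266 CPM in ischemia, at least 17.8-fold higher, but 104 of its 106 UMIs lay in 1 cell. Ccl7 was 5.54-fold higher (1.36–48.6), with all 22 ischemia UMIs in 1 cell. Neither call was left without the highest cell. Ccl5 was 2.73-fold higher (1.70–4.58), with 107 of 114 ischemia UMIs in 5 cells and all 21 control UMIs in 1 cell. Ccr2 was at 433 and 296 CPM and Ccl4 at 1574 and 1313 CPM, and neither passed the rule. In conventional dendritic cell (cDC)-like cells, of which there were 12 in each library, Ccr2 was lower, at 486 CPM (378–617) in control cells and 187 CPM (128–264) in ischemia, a ratio of 0.385 (0.245–0.594). It was 1 of 2 genes with enough UMIs there, where 5.87% of all genes were higher and 5.83% lower.

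Outside the immune-like clusters, EC-like cells had Ccl2 in ischemia. It had 2 UMIs in 902 control cells and 665 UMIs in 1038 ischemia cells, 0.402 CPM (0.049–1.45) against 101 CPM (93.4–109), with a ratio of 251 (69.2–2078). Without the highest 8% of doublet scores the ratio was 441 (78.8–17429), with 1 control UMI and 659 ischemia UMIs. The larger ratio thus rests on 1 control UMI. The scores came from a run that called 0 doublets, so the part of doublets was not tested. Ccl2 UMIs were found in 68 ischemia cells (6.55%, 5.12–8.23), and in 2.84% after thinning, above the 0.205% of TAL-like cells. The highest cell had 154 UMIs and the 5 highest together 382. Of the 665 UMIs, 614 lay in cells with no UMI of a macrophage marker, and without all cells that had such a UMI the level was 107 CPM against 0.430 CPM. The signal lay in the Plvap-led EC-like cluster (106 CPM, 65 of 997 cells) and was at 8.83 CPM (1.82–25.8) in the smaller cluster led by Plat and Sele, with 41 ischemia cells. The 29 cells with 3 or more Ccl2 UMIs had 937 CPM of Vcam1, a leukocyte adhesion molecule, and the 970 cells with none had 266 CPM. Other endothelial and adhesion genes were also measured in these cells and are not given, and the part of depth was not tested. Together the 29 cells had 1 UMI of Lyz2 and 1 UMI of C1qa.

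In EC-like cells 6 of 6 genes with enough UMIs were higher, against 2.39% of all genes higher and 4.63% lower. The other 5 were at low levels. Ccl4 was at 3.82 and 21.1 CPM, with 121 of 139 ischemia UMIs in 1 cell that also had 28 UMIs of the macrophage gene C1qa. Most ischemia UMIs of Ccl3 also lay in 1 cell, so the calls of Ccl3 and Ccl4 rested on single cells. The count of 6 was not taken again without these cells. Ccl3, Ccl5, Ccl6 and Ccl9 were at 0.603 to 1.21 CPM in control cells and 3.34 to 10.6 CPM in ischemia. The macrophage marker list went from 33.7 to 68.7 CPM in the same cells, and its part in these 5 values was not tested.

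DCT-CNT-like cells, from the distal convoluted and connecting tubule, had Ccl5 in ischemia. It was at 3.89 CPM (2.71–5.42) in 465 control cells and 214 CPM (204–225) in 354 ischemia cells, 55.02-fold higher (39.4–79.3). The 2 genes with enough UMIs, Ccl5 and Ccl4, were both higher, against 7.83% of all genes higher and 5.44% lower, with Ccl4 at 1.22 and 2.75 CPM. Few cells carried the signal. Ccl5 UMIs were found in 35 ischemia cells (9.89%, 6.98–13.5), in 4.27% after thinning, and the 5 highest cells held 1199 of 1635 UMIs, with 426 in 1 cell. In control, 2 cells held all 35 UMIs. PT-like cells had a Ccl5 UMI in 0.364% of control and 2.11% of ischemia cells at medians of 26546 and 36069 UMIs, and in 0.288% of ischemia cells after thinning.

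The T cell genes Cd3e, Nkg7 and Gzma had 0 UMIs in the 35 DCT-CNT-like cells with Ccl5. Over the whole list of 10 T/NK markers, which holds Cd3e and Nkg7, 12 of these 35 cells and 72 of the 319 without Ccl5 had a UMI, and the summed level in DCT-CNT-like cells was 13.8 CPM in control and 18.0 CPM in ischemia. Of the 1635 ischemia UMIs of Ccl5, 913 lay in the 270 cells with no UMI of the list, at 169 CPM (158–180), against 3 UMIs in 393 such control cells, at 0.409 CPM (0.0844–1.20). The part of T/NK cells in the other UMIs was not tested. Slc12a3, the thiazide-sensitive NaCl cotransporter, was at 2458 CPM in the 22 cells with 3 or more Ccl5 UMIs and at 3765 CPM in the 319 cells with none. Ccl20, a ligand of Ccr6 picked after its values were seen, was at 626 CPM in those 22 cells and 29.3 CPM in the 319.

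TAL-like cells showed the same gene at a lower level. Ccl5 was at 1.16 CPM (0.6001–2.03) in 500 control cells and 35.2 CPM (32.0–38.6) in 489 ischemia cells, 30.3-fold higher (17.2–59.1), and the 5 highest of 21 positive cells held 396 of 442 UMIs. Cells with 3 or more UMIs of Ccl5 had 928 CPM of Ccl20, against 3.26 CPM in cells with none, and 0 UMIs of Cd3e, Nkg7 and Gzma. In the 319 ischemia cells with no UMI of the T/NK list Ccl5 had 184 of the 442 UMIs, or 25.4 CPM (21.9–29.3), against 1 UMI, or 0.127 CPM, in 397 such control cells. The list stood at 16.0 and 24.1 CPM over all TAL-like cells, and its part in the other UMIs was not tested. In TAL-like cells 2 of 3 genes tested were higher, against 9.21% of all genes higher and 8.22% lower. The other was Ccl9, with 0 control UMIs and 41 ischemia UMIs in 10 cells. In ischemia, DCT-CNT-like and TAL-like cells held 39.6% and 10.7% of the Ccl5 UMIs and T/NK-like cells 36.1%. Without the cells that had a T/NK marker UMI the first 2 types held 913 and 184 UMIs, fewer than the 1491 of T/NK-like cells.

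**Figure D5:**
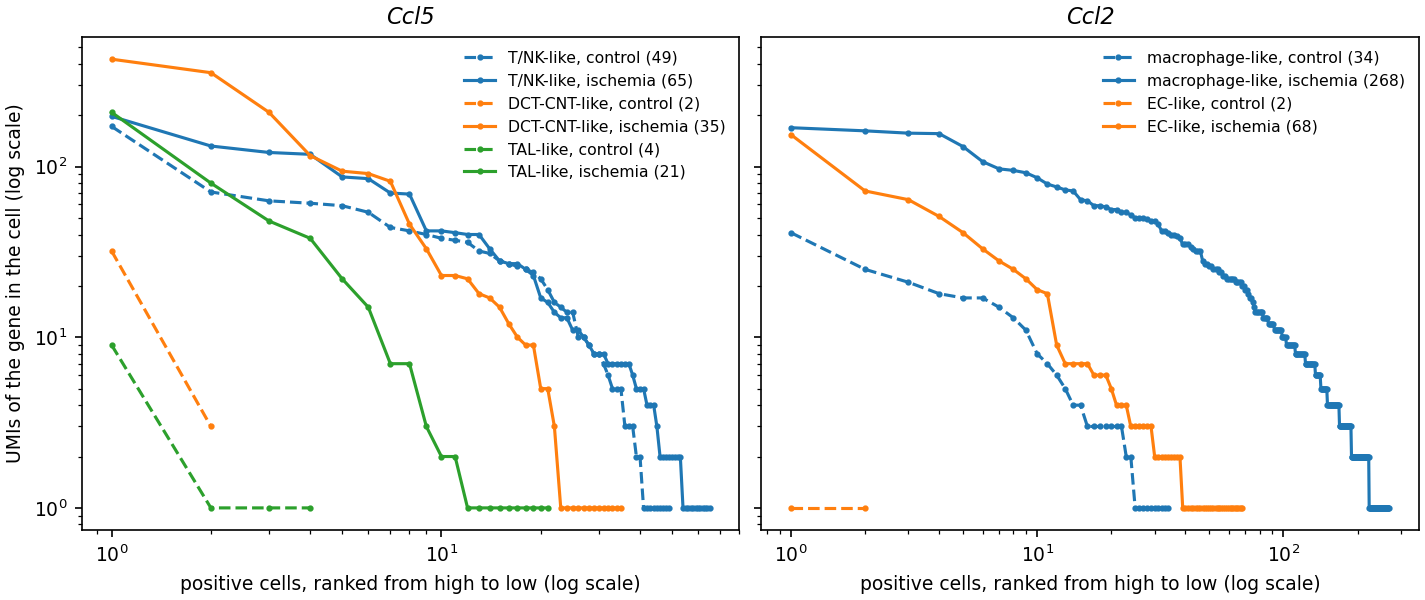
UMIs of Ccl5 (left) and Ccl2 (right) in each cell that had the gene, ranked from the highest cell down, on log axes, with control dashed, ischemia solid and the number of positive cells in brackets. The highest DCT-CNT-like cell (426 UMIs of Ccl5) lies above every T/NK-like cell (at most 197), and the highest EC-like cell (154 UMIs of Ccl2) lies close to the highest macrophage-like cell (169). These UMIs are not scaled by depth, which differed between the cell types. Medians over both libraries were 20713 UMIs per DCT-CNT-like and 3246 per T/NK-like cell. They were 3951.5 UMIs in the Plvap-led EC-like cluster and 7484 per macrophage-like cell.

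Stroma-like cells had 2 genes with enough UMIs, and both were higher, against 3.84% of all genes higher and 3.67% lower. Ccl7 was at 3.86 CPM (1.05–9.87) in control cells and 35.8 CPM (27.7–45.6) in ischemia, 9.29-fold higher (3.46–35.1), with 57 of its 66 ischemia UMIs in 2 cells. These 2 cells had 6905 CPM of the fibroblast gene Dcn, against 222 CPM in cells without Ccl7, and 0 UMIs of Lyz2 and C1qa. Other stromal genes were also measured in these cells and are not given. With at most 25% mitochondrial UMIs, Ccl7 was 32.6-fold higher (5.65–1308), but with 1 control UMI against 66 ischemia UMIs. Ccl2 was at 2.89 and 15.7 CPM. In collecting duct (CD-PC)-like cells 3 of 5 genes tested were higher, against 6.96% of all genes higher and 5.18% lower, and 56 of the 61 Ccl2 UMIs lay in 1 cell with 16 UMIs of the myeloid gene Lyz2.

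In PT-like cells, 7 of 8 genes with enough UMIs were higher, against 7.84% of all genes higher and 4.49% lower, but the levels were low. The highest of the 10 genes reached 1.999 CPM in ischemia, and after thinning at most 0.288% of ischemia cells had a UMI of any of them. The macrophage marker list was at 3.03 CPM in control cells and 10.5 CPM in ischemia in these cells, and its part was not tested. An unnamed cluster of shallow droplets, with medians of 895 and 798 UMIs, showed the same picture, with 8 of 8 genes higher against 9.5% of all genes higher and 2.4% lower, and 8.72 to 22.7 CPM for Ccl12, Ccl2, Ccl6, Ccl4 and Ccl5 in ischemia. In an unnamed cluster led by Pvalb, Ccl5 was higher (1.37 against 36.7 CPM) and Ccl4 lower (4.89 against 1.59 CPM), the only genes with enough UMIs there, where 7.77% of all genes were higher and 4.92% lower. In an unnamed cluster led by Inmt, 1 of 2 genes tested was higher, Ccl5 (0.271 against 1.97 CPM), where 5.37% of all genes were higher and 3.11% lower. Podocyte-like and thin limb-like cells had under 20 UMIs of every one of the 10 genes.

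Likeness between genes was taken as Pearson's r of log2(CPM + 1) over 24 groups of cell type and library, which share libraries and depth, and is a description only. Among the 10 genes, Ccl3 and Ccr2 were most alike (r = 0.96), followed by Ccl3 and Ccl4 (0.91), Ccl8 and Ccl12 (0.91) and Ccl9 and Ccl12 (0.91). Ccl5 was least like the others, at 0.04 with Ccl6. Of the other genes, those nearest to Ccl12 were Fcrls, Clec4a3 and Adgre4, and those nearest to Ccl8 were C3ar1, Clec4b1 and Trem2. The genes nearest to Ccl6 were Ifitm6, C5ar1 and Pilra, and to Ccl9 Clec4a3, Fcrls and Msr1. Ccl2 was nearest to Gm17268, Tgfbi and Lyz2, and Ccl7 to Trem2, Gm17268 and Vcan. Ccl3 was nearest to Itgax, Bcl2a1d and Tmem273, Ccl4 to Rgs1 and Parvg, and Ccr2 to Tmem273 and Rgs1. Ccl5 was nearest to Il7r, Klrk1 and Ms4a4b, genes of lymphocytes. The r of these nearest genes lay between 0.81, for Lyz2 with Ccl2, and 0.98.

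The rest of the CC family was taken as lists of 12 other ligands, 10 other receptors and 4 atypical receptors, which take up chemokines without signalling through G proteins. In macrophage-like cells, 5 of 12 ligands had enough UMIs, of which 2 were higher and 0 lower, and the median log2 ratio was 0.77. As above, 5.33% of all genes in these cells were higher and 6.93% lower, with a median log2 ratio of 0.06. The 2 were Ccl22, at 5.02 and 20.9 CPM, and Ccl24, at 1.67 and 19.6 CPM, named here after their values were seen. Ccl22 had 9 UMIs in 4 control cells and 112 UMIs in 9 ischemia cells. It was also the first leading gene of the migratory dendritic cell-like sub-cluster, most of whose cells lay in the macrophage-like cluster. The part of that sub-cluster in the Ccl22 value was not tested. Of the receptors, 5 of 10 had enough UMIs, 2 were higher and 1 lower, and the median was 0.52. Beside Ccr1, these were Ccr7, higher at 6.69 and 25.2 CPM, and Ccr9, lower at 16.2 and 3.73 CPM, also named after their values were seen. Ccr1, the receptor of Ccl6 and Ccl9, was at 42.4 CPM in control cells and 151 CPM in ischemia, 3.57-fold higher (2.82–4.58). Ccrl2, which was counted on the list of receptors and not on that of atypical receptors, was at 99.3 and 85.0 CPM. None of the 4 genes on the list of atypical receptors had enough UMIs there.

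Over all kept cells, with a minimum of 100 UMIs, 8 of the 12 other ligands were counted, of which 4 were higher and 1 lower, against 8.1% of all genes with that minimum higher and 3.77% lower. Their median log2 ratio was 1.04, and that of all genes 0.13. The 3 with most UMIs were Ccl25, at 15.2 and 14.8 CPM, Ccl27a, at 11.5 and 11.7 CPM, and Ccl21a, at 10.1 and 3.04 CPM, which was lower. Ccl21a and Ccl27a have near-identical copies in the mouse genome, so their counts are uncertain, and 97.7% of control Ccl21a UMIs lay in EC-like cells, in 7 cells. Ccl20, again picked after its values were seen, rose from 30 to 1592 UMIs, 51.4-fold higher (35.9–76.4), and 39.5% of its ischemia UMIs lay in DCT-CNT-like cells, where Ccl5 was also found. Of the receptors 5 of 10 were counted and 4 were higher, with a median log2 ratio of 1.96, including Ccr1 at 0.987 and 10.2 CPM. Of the atypical receptors 2 of 4 were counted, Ackr3 at 16.8 and 12.3 CPM and Ackr4 at 2.18 and 1.40 CPM, and neither passed the rule.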

How the data were processed

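The authors sequenced 10x Genomics 3′ libraries of 1 control and 1 ischemic kidney and deposited UMI counts per gene and barcode, made with Cell Ranger 7.0.0 on mm10 as the submitters' processing notes name them. These counts are not normalized. The genes and lists were chosen with earlier results of these data known. Barcodes were kept if they had 200 or more genes, between 500 and 150000 UMIs, and a mitochondrial share of 55% or less. Libraries were integrated and clustered with Seurat 5.3.0 (R 4.3.3; 2000 variable genes without the 10 genes, 30 principal components, resolution 0.3), and immune-like clusters were clustered again at resolution 0.5, also without the 10 genes among the variable genes. Marker lists were scored in each cluster by the mean over markers of the log2 CPM relative to the median cluster (pseudocount 10 CPM), and the best list gave the name if at least 3 markers had 10 or more UMIs and its 10 leading genes held more markers of that list than of others, and otherwise stayed unnamed. Scrublet (scanpy 1.11.5) called 0 doublets in either library, so it has not worked and doublets were kept. UMIs were summed per library and cell type and scaled by the total UMIs of those cells to CPM, with intervals from scipy 1.17.1 under Python 3.11.15 (95%, a floor of 3 counts for 0). Thinning drew 1000 UMIs per cell and left out shallower cells. All 10 genes were named in the text, with the 3 genes with most UMIs of each other CC list and the 3 genes most like each of the 10. An item that these rules also name is not reported here. On simulated counts for 11244 genes of macrophage-like cells, 96.1% of intervals held the true ratio, 100% of 200 changed genes were called and 0.996% of unchanged genes were called. The simulated counts were drawn as Poisson counts, so they hold no clumping of UMIs in single cells. These rates therefore do not tell how often such clumping leads to a call. The alternatives changed the filters, the integration, the resolution, the naming of cells, the scaling and the call rule. The depth was 124679362 and 128733541 UMIs in kept cells, which limits low genes in small clusters most.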

Additional observations from a re-analysis of the deposited data

Results flagged for a closer look

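The calls of Ccl3 differed in direction between cell types under the same comparison of libraries. Its CPM in ischemia over control was 0.453 in macrophage-like cells, against 13.2 in EC-like cells, at least 7.69 in PMN-like cells and 3.33 in PT-like cells. With 1 library per condition this difference was not tested. In EC-like cells 63 of the 70 ischemia UMIs lay in 1 cell, and in PMN-like cells the control value was 0 UMIs in 33 cells. Only 17 of these 33 were in the PMN-like sub-cluster, where the ratio was at least 2.94. In PT-like cells the ratio came from 14 control and 47 ischemia UMIs. The macrophage marker list was also at a higher level in ischemia in PT-like cells, and its part was not tested. Weighting ischemia cells to the control shares moved the macrophage-like ratio to 0.758. By sub-cluster, Ccl3 was lower in C1q-low monocyte-like (0.347) and migratory dendritic cell-like cells (0.338). In the C1q-low monocyte-like sub-cluster its control UMIs lay in few cells. Ccl3 missed the rule in the Cd209f-led (0.753) and Adgrl4-led (1.85) sub-clusters.

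Barcodes that the filters removed also held CC ligand UMIs. Their summed level was 13.8 CPM (interval 11.9–15.8) in 2141 ischemia barcodes and 9.11 CPM (7.77–10.6) in 2524 control barcodes, and no comparison of the report used them.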

How the results depend on the processing

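The number of the 10 genes higher in macrophage-like cells stayed within 1.5 times of 4 under every alternative that gave a value. The number lower was 1 and became 2 with at most 25% mitochondrial UMIs, after thinning, without the unnamed sub-cluster led by Adgrl4 or without the highest 8% of doublet scores, and 3 with a marker gate in place of clusters or a 1.5-fold limit. The ratio of summed ligands was 1.12 and became 1.05 with at most 25% mitochondrial UMIs, 1.18 without integration, 1.00006 with the gate, 0.957 after thinning, 0.998 as the mean of each cell's CPM, 1.04 without that sub-cluster, 1.04 without the highest doublet scores and 1.26 with the control mix of sub-clusters. The ratio of Ccr2 was 1.78 and became 2.04 with the gate, 2.11 after thinning, 2.07 as the mean of each cell's CPM and 0.820 with the control mix. The share of ligand UMIs in immune-like cells was 95.7% in control and 87.6% in ischemia, and became 97.2% and 90.7% with at most 25% mitochondrial UMIs, 96.3% and 88.6% with at least 1000 UMIs, 80.6% and 83.1% with the gate, and 96.2% and 90.4% after thinning. In ischemia alone it became 82.1% without cells with 3 or more PT marker UMIs, 86.8% without the sub-cluster and 88.2% without the highest doublet scores. The causes were not tested. Leaving out cells with 3 or more PT marker UMIs left 0 control macrophage-like cells, so ratios could not be computed. Leaving out the sub-cluster, the doublet scores and the control mix were chosen after seeing the data. For the 9 ligands one by one, 105 of 108 values over 12 alternatives kept their direction, and the exceptions were in Ccl5 and Ccl8. Ccr2 also turned, with the control mix alone. Leaving out Scrublet doublets was void, since 0 were called. The doublet scores came from the same run, so leaving out the highest of them does not tell how doublets affect the values. No paired analysis was possible because each condition had 1 library.

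With 1 library per condition, the spread between mice cannot be seen, and depth limits the 20 control cells of the C1q-low monocyte-like sub-cluster most.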
